A study of Drosophila melanogaster with 30 samples.

Results

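Depletion of Mip40 by RNA interference was compared with a control interference in Drosophila Kc cells, using the 3 arrays titled as Mip40 knock-down against the 3 control arrays of a series of 30 arrays. Kc cells are an embryonic line of tetraploid female karyotype that resembles blood cells (hemocytes). The Mip40 cells received RNA against Mip40. The knockdowns of 3 further subunits of the same protein core, Lin-52, Mip130 and Mip120 (3 arrays each), served for direct comparisons. The control cells received a nonspecific RNA made from the plasmid pBSK+ and called SK+. All cells were grown in suspension in Schneider's medium with serum, and RNA was taken after 4 days of interference, with 10 micrograms of total RNA labelled per array. A knockdown leaves some of the target protein, whose level was not analysed here, and the sequence of the interfering RNA is not given in the sources used here. No source used here states whether the 3 arrays of each kind stand for 3 cultures, so every p-value measures only the spread between these arrays, which may be technical.

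Mip40 (Myb-interacting protein 40) is the fly relative of LIN-37, a protein of the worm MuvB core. In flies the core of Mip40, Mip120, Mip130, Lin-52 and a histone-binding protein joins the oncoprotein Myb and the repressive trio of E2F2, Dp and an RBF protein. The joined complex, called dREAM or Myb-MuvB, sits at many promoters, keeps genes of differentiated tissues silent in cultured cells and helps to express genes of the G2 and M phases. In the testis, Mip40 is also part of tMAC, a relative of the complex that turns on spermatocyte genes. The comparison asks which transcripts depend on Mip40, and the direct comparisons ask where depletion of Mip40 differs from depletion of its core partners.

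Of 13966 probe sets left after 44 control probe sets were removed, 7794 were bright enough to be tested, and these read 6392 named genes through the brightest probe set of each. A probe set or gene is said to have changed where its adjusted p from a limma fit over all 30 arrays was under 0.05. All levels are log2 signals and all changes are log2 differences of group means, so that 1 is a 2-fold change. A change is given as Mip40 minus the group it is set against, with the standard error (SE) of that fit. Of all tested genes 16.3% changed: 7.10% were higher and 9.20% lower after Mip40 knockdown (454 and 588 genes). The median change over all tested genes was -0.005. The 3 Mip40 and 3 control values did not overlap for 30.5% of the tested probe sets. Most changes were small, with a median size of 0.29 over the 1240 changed probe sets. In 414 of them the change was under 0.25, in 628 from 0.25 to 0.5, in 155 from 0.5 to 1, and in 43 at least 2-fold, 23 higher and 20 lower.

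The Mip40 arrays correlated with each other at 0.995 to 0.9967. Control replicate 3 stood apart from the other control arrays, at 0.99 to 0.9903, against 0.9965 between those 2. For 71.7% of the changed probe sets it lay on the Mip40 side of the mean of the other control arrays, against 61.7% of all tested probe sets, and without it 1477 probe sets changed. Lin-52 replicate 1 stood apart likewise, at 0.9858 to 0.9865 with the other Lin-52 arrays, against 0.9955 between those. Array medians ran from 6.55 to 6.57. The 3′ minus 5′ difference of the GAPDH control probe sets, a sign of RNA quality, averaged 1.30 ± 0.08 on the Mip40 arrays and 1.33 ± 0.07 on the control arrays (SD, n = 3 each). For the actin control probe sets it was 0.69 ± 0.16 on the Mip40 arrays and 0.56 ± 0.15 on the control arrays. The bacterial spikes added for hybridization, in contrast, averaged 9.27, 9.06 and 9.17 on the Mip40 arrays, against 9.34, 9.64 and 9.54 on the control arrays. The groups did not overlap there, the median spike difference was -0.31, and the part of this in the results was not tested. The 23 control probe sets with no target in flies had mean signals from 3.12 to 6.29 on the Mip40 arrays and from 3.16 to 6.22 on the control arrays. A mean of 6.22 or less, the top on the control arrays, is called background here, and Mip40 means up to 6.29 can be background too. Where the lower of 2 means is background the change is a lower bound, and where both are it bounds nothing. At least 1 mean was background in 66 of the changed genes, or 79 with the limit at 6.29, which takes in Mad1 and cuff among the genes named below.

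The mip40 transcript itself read 7.29, 7.40 and 7.50 on the Mip40 arrays, against 9.42, 9.50 and 9.27 on the control arrays. The groups lay far apart, and the transcript fell to 25.0% of control, with an SE of 0.0827 on the log2 scale (adjusted p = 9.83e-18). Its level on the other core knockdown arrays was 9.07 ± 0.09 for Lin-52, 9.30 ± 0.01 for Mip130 and 9.35 ± 0.04 for Mip120 (SD, n = 3 each). The direct differences of the Mip40 arrays from them were -1.67, -1.90 and -1.95, each past the test. Of the 9 other dREAM and partner genes tested, Rbf2, the second fly retinoblastoma relative, was higher by 0.18 (SE 0.0571, adjusted p = 0.0242), a call that was lost without control replicate 1 or 3 or without Mip40 replicate 2 or 3. The core genes mip120, mip130 and lin-52 differed by 0.16, 0.19 and -0.05 (adjusted p = 0.258, 0.0824 and 0.694). E2f2, E2f1, Dp, l(3)mbt and the histone-binding core gene differed by -0.07 to 0.18 and did not pass the test. Rbf was too weak to be tested, at 4.94 ± 0.08 on the Mip40 arrays and 4.92 ± 0.06 on the control arrays, and Myb was not matched to a probe set here.

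**Figure D1:**
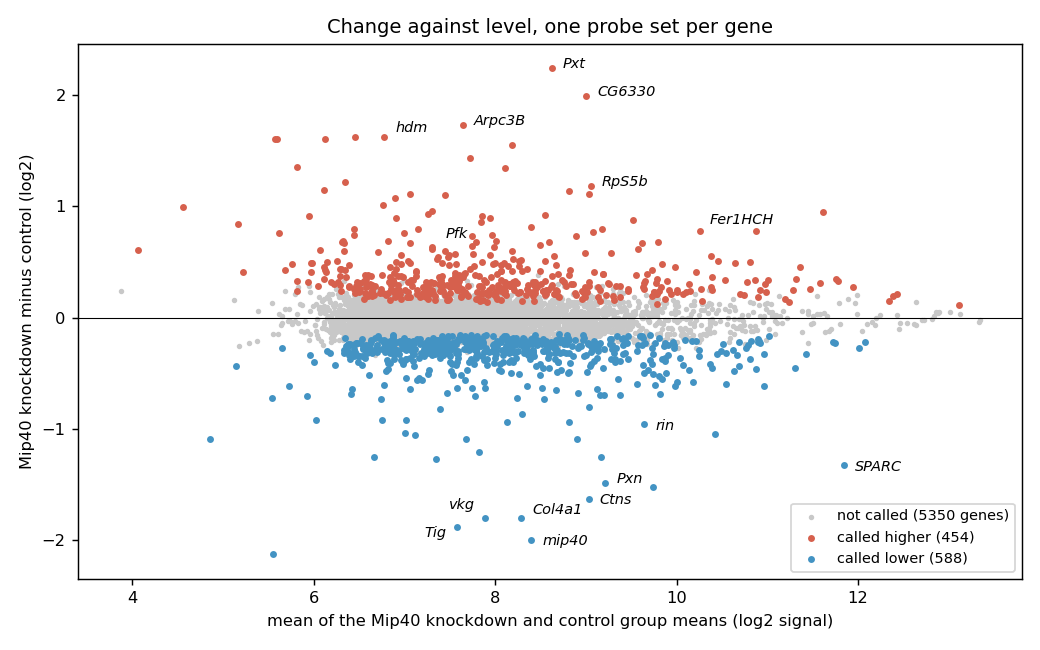
Log2 change (Mip40 knockdown minus control, vertical axis) against the mean log2 level of both groups (horizontal axis) for 6392 genes, 1 point a gene. The 454 genes called higher are red, the 588 called lower are blue and the rest are grey; mip40, Tig, vkg and Col4a1 lie among the lowest, and Pxt is the highest point at 2.24.

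Genes of the basement membrane, the sheet of secreted matrix that hemocytes help to lay down, made up 7 of the 20 largest falls. In the matrix list 53.85% of the 13 tested members were called, against 16.3% of all tested genes. Of the 13, 7 fell and none rose, with a median of -1.05 against -0.005 for all tested genes. These were both type IV collagen chains, the integrin ligand tiggrin, peroxidasin, SPARC, glutactin and papilin. The count was 7 without each single array in turn and when the change was tested against 0.25.

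Tig, which encodes tiggrin, read 6.51, 6.73 and 6.68 on the Mip40 arrays, against 8.59, 8.57 and 8.40 on the control arrays. The 6 values fell into 2 separate sets, with a change of -1.88 (SE 0.103, adjusted p = 6.99e-15), or 27.2% of control. The collagen gene vkg read 6.94, 6.95 and 7.07 on the Mip40 arrays, against 8.93, 8.84 and 8.61 on the control arrays. Its partner Col4a1 read 7.37, 7.36 and 7.45 on the Mip40 arrays, against 9.32, 9.22 and 9.04 on the control arrays. Both chains fell by 1.80, to 28.6% of control for vkg and 28.7% for Col4a1, with no overlap and with control replicate 3 the lowest of the control values. Their adjusted p values were 3.85e-18 for vkg and 9.81e-19 for Col4a1. The 2 genes lie next to each other on chromosome 2L.

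Pxn, the gene of peroxidasin, an enzyme that crosslinks collagen IV, read 8.42, 8.43 and 8.56 on the Mip40 arrays, against 10.21, 10.03 and 9.65 on the control arrays. SPARC, a collagen-binding glycoprotein, read 11.10, 11.18 and 11.27 on the Mip40 arrays, against 12.65, 12.56 and 12.33 on the control arrays. SPARC was the most strongly hybridized of the fallen matrix genes, and in both genes every Mip40 value lay below every control value. Pxn fell by 1.49 (SE 0.132, adjusted p = 6.11e-10) and SPARC fell by 1.33 (SE 0.0973, adjusted p = 8.39e-12). Glt, which encodes the secreted glycoprotein glutactin, read 7.21, 7.13 and 7.33 on the Mip40 arrays, against 8.43, 8.26 and 8.59 on the control arrays, a change of -1.21 (SE 0.162, adjusted p = 1.79e-06). Ppn, which encodes the matrix proteoglycan papilin, averaged 9.90 ± 0.02 on the Mip40 arrays and 10.95 ± 0.16 on the control arrays (SD, n = 3 each). Its brighter probe set, whose probes are shared between transcripts, fell by 1.05 and its second one fell by 0.63 (adjusted p = 8.01e-07 and 0.00133).

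The 3 tested laminin genes did not pass the test. LanA averaged 9.53 ± 0.04 on the Mip40 arrays and 9.72 ± 0.10 on the control arrays, LanB1 9.19 ± 0.15 and 9.28 ± 0.11, and LanB2 9.90 ± 0.01 and 10.05 ± 0.05 in the same order (SD, n = 3 each). Their differences were -0.19, -0.10 and -0.15 (adjusted p = 0.326, 0.672 and 0.265). The secreted fat-spondin, the syndecan gene Sdc and the gene Cow differed by -0.14, 0.10 and 0.05 and did not pass. The perlecan gene trol, nidogen (Ndg) and the second laminin alpha chain (wb) were background in both groups and not tested. Whether a laminin's change differed from a collagen's was not tested.

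Genes listed for the folding, modification and export of collagen were lower too, by smaller amounts. The list was chosen with earlier results of these data known. It also holds chaperone and vesicle coat genes, and whether its falls are particular to collagen was not tested. Of 15 tested genes 10 fell and none rose (66.7% called, against 16.3% of all tested genes), with a median of -0.32. KdelR, the receptor that returns chaperones to the endoplasmic reticulum, read 9.52, 9.47 and 9.63 on the Mip40 arrays, against 10.11, 10.07 and 10.03 on the control arrays, and fell by 0.53 (SE 0.0615, adjusted p = 1.16e-07). Gp93, an endoplasmic reticulum chaperone of the Hsp90 family, read 10.64, 10.62 and 10.68 on the Mip40 arrays, against 11.09, 11.10 and 11.13 on the control arrays, and fell by 0.46 (SE 0.0526, adjusted p = 8.22e-08). In both genes the values within each group lay close together and the groups were apart.

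The vesicle coat genes Sec31 and Sec24CD fell by 0.45 and 0.30 (adjusted p = 8.69e-06 and 0.00225). The disulfide isomerase gene Pdi fell by 0.44 (adjusted p = 0.000236), the cargo receptor gene eca by 0.43 (adjusted p = 4.91e-05), and the lectin chaperone gene Cnx99A by 0.32 (adjusted p = 0.00444). The collagen hydroxylases PH4alphaEFB, which acts on prolines, and Plod, which acts on lysines, fell by 0.36 and 0.35 (adjusted p = 3.7e-06 and 1.37e-05). Hsc70-3, the BiP chaperone, fell by 0.29 (adjusted p = 0.00642), read by a probe set whose probes are shared within its family. Tango1, which helps to load collagen at exit sites, differed by -0.12 and did not pass (adjusted p = 0.214), nor did Sec13, Sec24AB, bai or Crag. The count of 10 was the same without each single array, and 2 passed when the change was tested against 0.25. It was 9 with quantile or cyclic loess scaling, where Hsc70-3 lost its call, and 13 with array weights. In the list of heat shock and unfolded protein response genes 2 rose and 4 fell of 16, with a median of -0.001. The oxidase gene Ero1L and the isomerase ERp60 were among the 4, at -0.43 and -0.27, while crc (the fly ATF4) and the stress sensor Ire1 rose by 0.25 and 0.18, the call of Ire1 being lost without control replicate 1 or 2 or without Mip40 replicate 1 or 3.

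**Figure D2:**
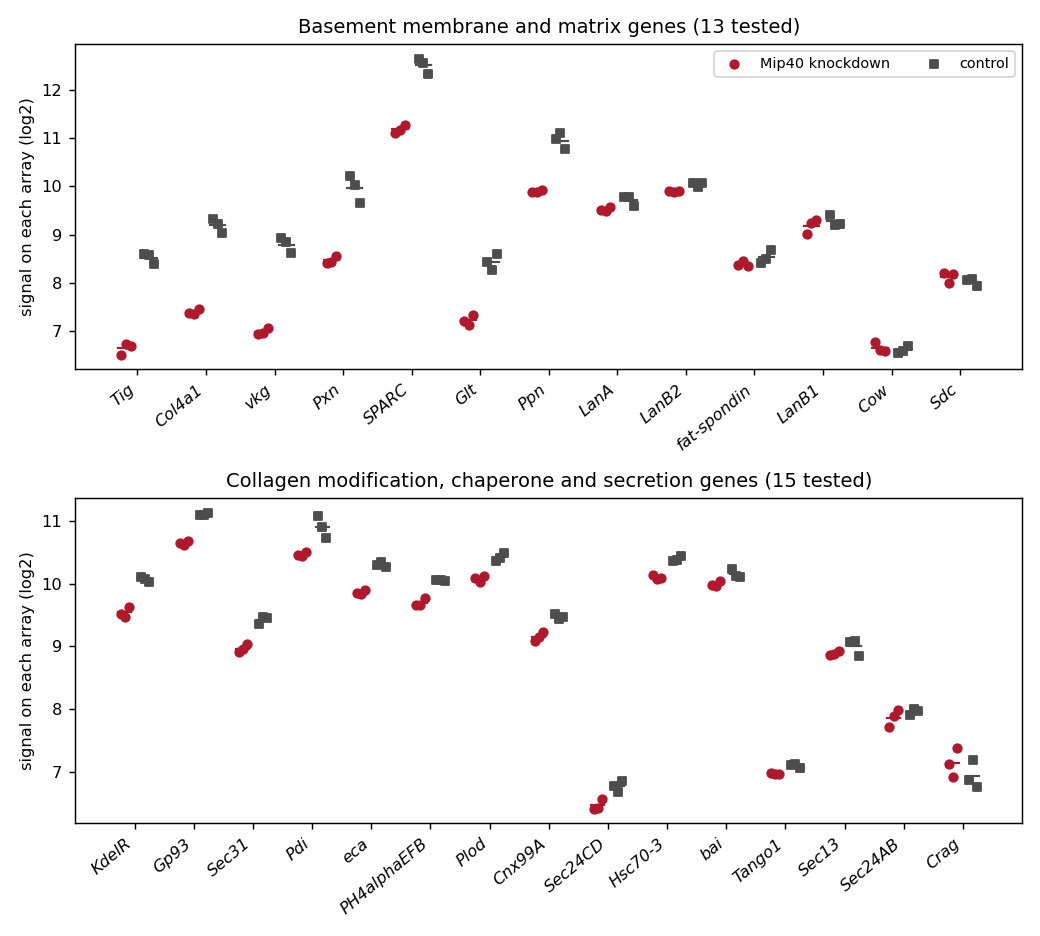
Log2 signal on each array (vertical axis) of the 13 tested matrix genes (top) and the 15 tested collagen modification, chaperone and secretion genes (bottom), ordered by their change; red circles are the 3 Mip40 knockdown arrays, grey squares the 3 control arrays and lines the group means. The 7 matrix genes at the left lie at least 1.05 below control, while LanA, LanB1 and LanB2 differ by -0.19 to -0.10.

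Further large falls reached genes outside the matrix. Ctns, which encodes the lysosomal cystine exporter cystinosin, read 8.23, 8.17 and 8.26 on the Mip40 arrays, against 9.93, 10.00 and 9.62 on the control arrays. It fell by 1.63 (SE 0.135, adjusted p = 1.39e-10), and the groups were apart. CG34330 read 8.95, 8.83 and 9.15 on the Mip40 arrays, against 10.63, 10.31 and 10.55 on the control arrays, a change of -1.52 (SE 0.166, adjusted p = 3.77e-08). The acetylcholine receptor subunit gene nAChRbeta3 read 8.52, 8.54 and 8.57 on the Mip40 arrays, against 9.81, 9.65 and 9.90 on the control arrays, a change of -1.25 (SE 0.0609, adjusted p = 5.48e-16). spz, the gene of the Toll ligand Spätzle, read 7.22, 7.08 and 7.13 on the Mip40 arrays, against 8.40, 8.33 and 7.97 on the control arrays, and fell by 1.09 (SE 0.0937, adjusted p = 3.37e-10). In these 4 genes every Mip40 value lay below every control value, as the choice of the 20 required. The remaining members of the 20 largest falls were CG4829, CG2930, the hormone-binding protein gene Jhbp1, the membrane-bending protein gene Cip4, the stress granule gene rin, the chaperone-like gene shv, CG1092 and the glucuronyltransferase gene GlcAT-P. They fell by 0.92 to 1.27, with adjusted p from 4.34e-11 to 6.94e-06. CG34437 showed -2.13 as a lower bound, since its mean of 4.49 on the Mip40 arrays was background, against 6.61 on the control arrays.

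Among the 20 largest rises were a peroxidase gene, enzymes, tissue paralogs of housekeeping genes and regulators of growth. Pxt, a cyclooxygenase-like peroxidase needed in egg development, read 9.68, 9.69 and 9.86 on the Mip40 arrays, against 7.39, 7.28 and 7.85 on the control arrays. It rose by 2.24 (SE 0.117, adjusted p = 2.88e-15), or 4.71-fold. CG6330 read 9.97, 9.97 and 10.07 on the Mip40 arrays, against 7.86, 7.70 and 8.48 on the control arrays, and rose by 1.99 (SE 0.146, adjusted p = 8.58e-12), or 3.97-fold. In both genes control replicate 3 was the highest control array, still more than 1 log2 unit below the lowest Mip40 array.

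Arpc3B, a second gene for a subunit of the Arp2/3 actin nucleator, read 8.45, 8.47 and 8.61 on the Mip40 arrays, against 6.92, 6.88 and 6.55 on the control arrays, and rose by 1.73 (SE 0.116, adjusted p = 1.15e-12). RpS5b, the germ line paralog of a small ribosomal subunit protein, read 9.59, 9.62 and 9.74 on the Mip40 arrays, against 8.39, 8.31 and 8.71 on the control arrays, and rose by 1.18 (SE 0.0979, adjusted p = 1.39e-10). It was the one of 10 tested ribosomal paralogs and relatives to rise, and RpLP0-like fell by 0.40. Prosbeta2R2, a testis paralog of a proteasome subunit, rose by 0.62 (SE 0.0798, adjusted p = 7.78e-07), while 4 of the 28 tested proteasome genes fell, by 0.17 to 0.25. In that list 17.9% were called, against 16.3% of all tested genes. That count of 4 was 9 without control replicate 3, 7 without Mip40 replicate 3, 1 without control replicate 2, and 2 without control replicate 1, Mip40 replicate 1 or Mip40 replicate 2. Array weights gave 18 falls there, while falls over all tested probe sets went from 695 to 1516.

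CG6770 and Sirup were among the 20 largest rises too. CG6770 read 8.90, 8.88 and 9.10 on the Mip40 arrays, against 7.46, 7.40 and 7.37 on the control arrays, a change of 1.55 (SE 0.0757, adjusted p = 5.48e-16). Sirup, named for its rise in starvation and an assembly factor of succinate dehydrogenase, read 8.76, 8.62 and 8.97 on the Mip40 arrays, against 7.49, 7.31 and 7.54 on the control arrays, a change of 1.34 (SE 0.13, adjusted p = 3.58e-09). Arc1, whose protein forms capsids that carry RNA, read 9.61, 9.56 and 9.60 on the Mip40 arrays, against 8.29, 8.37 and 8.79 on the control arrays, a change of 1.11 (SE 0.0991, adjusted p = 6.96e-10). The pigment enzyme gene yellow-f2 rose by 1.14, with control values between 8.23 and 8.25 and Mip40 values between 9.31 and 9.42. CG15784, at 12.09 ± 0.08 (SD, n = 3) on the Mip40 arrays the strongest signal of the 20, rose by 0.95 (SE 0.165), with control values of 10.88, 10.82 and 11.73, so that control replicate 3 lay nearer to the Mip40 arrays than to the other controls. CG13084, CG8788, CG2887, CG34355, CG7997 and CG8620 rose by 0.91 to 1.43.

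**Figure D3:**
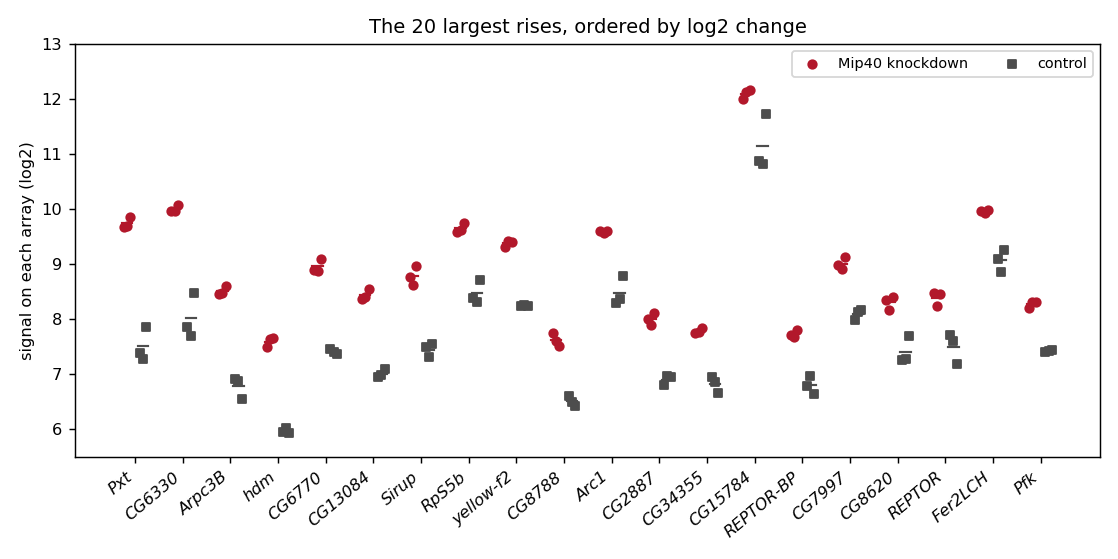
Log2 signal on each array (vertical axis) of the 20 genes with the largest rises, ordered by log2 change; red circles are the 3 Mip40 knockdown arrays, grey squares the 3 control arrays and lines the group means. The genes run from Pxt (2.24) at the left to Pfk (0.86) at the right. They were picked among genes with no overlap, so every Mip40 array lies above every control array by that choice.

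Genes of the insulin and TOR pathway and of the Idgf family gave 7 rises and 1 fall among 21 tested, with a median of 0.16 against -0.005 for all tested genes. The share called was 38.1%, against 16.3% of all tested genes. REPTOR is a transcription factor that the TOR complex holds inactive while nutrients are plentiful, and REPTOR-BP is its binding partner. REPTOR read 8.47, 8.24 and 8.45 on the Mip40 arrays, against 7.72, 7.60 and 7.18 on the control arrays, a rise of 0.89 (SE 0.101, adjusted p = 8.22e-08). REPTOR-BP read 7.71, 7.68 and 7.80 on the Mip40 arrays, against 6.79, 6.96 and 6.64 on the control arrays, a rise of 0.93 (SE 0.108, adjusted p = 1.15e-07). Both pairs of groups were apart, and control replicate 3 was here the lowest array, farthest from the Mip40 values. The insulin receptor substrate chico and the kinase Akt rose by 0.27 and 0.23 (adjusted p = 0.00049 and 0.00456). InR, foxo, S6k, raptor and Tsc1 did not pass, at -0.06 to 0.17.

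The Idgf genes encode secreted chitinase-like growth factors, and their members moved in both directions. Idgf1 read 6.40, 6.35 and 6.46 on the Mip40 arrays, against 4.46, 4.73 and 5.21 on the control arrays, which were background, so its rise of 1.60 is a lower bound. Idgf2 and Idgf3 rose by 0.48 and 0.23 (adjusted p = 0.000119 and 0.00797). Idgf6 read 10.27, 10.15 and 10.31 on the Mip40 arrays, against 10.84, 10.86 and 10.84 on the control arrays, and fell by 0.60 (SE 0.0915, adjusted p = 1.27e-05). Its neighbour on chromosome 2R, the glycosyltransferase gene Pgant9, fell by 1.25 as a lower bound, since its mean of 6.04 on the Mip40 arrays was background. Idgf4 and Idgf5 did not pass, at 0.07 and 0.08.

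Of 35 tested genes of redox balance and metal handling 10 rose and 1 fell, with a median of 0.11. In that list 31.4% were called, against 16.3% of all tested genes. The iron store ferritin led the rises. Its heavy chain gene Fer1HCH read 10.66, 10.57 and 10.73 on the Mip40 arrays, against 9.86, 9.89 and 9.87 on the control arrays, a rise of 0.78 (SE 0.0617, adjusted p = 5.15e-11). Its light chain gene Fer2LCH, the next gene on chromosome 3R, read 9.96, 9.92 and 9.99 on the Mip40 arrays, against 9.10, 8.86 and 9.25 on the control arrays, a rise of 0.88 (SE 0.0814, adjusted p = 1.22e-09). Both chains rose on every Mip40 array, and Irp-1A, which encodes an iron regulatory protein, fell by 0.24 (adjusted p = 0.0066). The glutathione transferase genes GstE3, GstE9, GstE1 and GstD1 rose by 0.51, 0.41, 0.26 and 0.21 (adjusted p = 2.27e-05, 9.4e-06, 0.00788 and 0.00045). GstE6 read 9.28, 9.24 and 9.34 on the Mip40 arrays, against 8.42, 8.44 and 9.24 on the control arrays. Control replicate 3 reached the lowest Mip40 array there, and the rise of 0.58 (adjusted p = 0.0042) was lost without control replicate 1 or 2. Catalase (Cat) and the peroxidase gene Gtpx rose by 0.28 and 0.34. Over the single arrays left out, 7 to 10 genes of the list rose, and 2 did when tested against 0.25.

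In glycolysis and the citric acid cycle 6 of 24 tested genes rose and none fell, with a median of 0.06. These were 25.0%, against 16.3% of all tested genes called. Pfk, the phosphofructokinase gene of the committed glycolytic step, read 8.20, 8.31 and 8.32 on the Mip40 arrays, against 7.40, 7.42 and 7.44 on the control arrays. The rise of 0.86 (SE 0.0581, adjusted p = 1.31e-12) stood well clear of the spread within either group. The aldolase gene Ald1 rose by 0.50 (SE 0.071, adjusted p = 4.88e-06). Pgi, Gapdh1, Eno and Pglym78 rose by 0.25, 0.25, 0.24 and 0.19 (adjusted p = 0.0119, 0.0066, 0.00261 and 0.00784), and Pgk was at -0.01. The control probe sets for GAPDH, left out of the tests, averaged 10.98 ± 0.06 on the Mip40 arrays and 10.48 ± 0.06 on the control arrays (SD, n = 3 each). No tested gene of the citric acid cycle in the list changed. The count ran from 4 to 8 over the single arrays left out, the 4 without Mip40 replicate 3, where 1 member also fell. Gapdh1 lost its call without control replicate 2 or Mip40 replicate 3, Pgi without Mip40 replicate 3 and Pglym78 without control replicate 1. Of 25 complex I genes of the respiratory chain 3 fell and none rose, with ND-15 at -0.49 (adjusted p = 0.000444). That count was 7 without control replicate 3 and 15 with array weights. Over all tested probe sets array weights gave 1516 falls, against 695 in the fit reported.

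Lysosome and autophagy genes were divided, with 8 rises and 4 falls among 32 tested and a median of 0.09. The share called was 37.5%, against 16.3% of all tested genes. The autophagy receptor gene ref(2)P and the autophagosome protein gene Atg8a rose by 0.42 and 0.36 (adjusted p = 2.98e-05 and 0.000102), the cathepsin gene CtsL1 by 0.35 and the proton pump subunit gene Vha26 by 0.35. Besides Ctns, the hexosaminidase gene Hexo2 fell by 0.70 (SE 0.0708, adjusted p = 7.25e-09), the mannosidase gene LManII by 0.43 and the cathepsin gene cathD by 0.32.

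Of 26 tested genes of DNA repair and damage signalling 8 rose and none fell, with a median of 0.11. These were 30.8%, against 16.3% of all tested genes called. Both Ku subunits rose, Irbp (Ku70) by 0.37 and Ku80 by 0.34 (adjusted p = 0.00185 and 0.00054). Ku80 read 7.21, 7.25 and 7.33 on the Mip40 arrays, against 6.98, 6.91 and 6.87 on the control arrays, small but without overlap. The double-strand break end-processing partners rad50 and mre11 rose by 0.32 and 0.29, p53 by 0.29, the translesion polymerase gene PolZ1 by 0.42, Fancd2 by 0.25 and DNAlig4 by 0.21. These 8 were 6 without control replicate 2 or Mip40 replicate 3, and none passed when the change was tested against 0.25. Of 42 replication genes 4 rose, RPA3, RPA1, PCNA and Ts, by 0.18 to 0.27, close to the share of all genes. That limma count was 0 without Mip40 replicate 3, 1 without control replicate 3, 2 without control replicate 1 or Mip40 replicate 2, and 5 without control replicate 2. None of the 4 passed without Mip40 replicate 3, and of these only RPA3 passed without control replicate 1 and only RPA1 without control replicate 3.

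Mitotic genes, a group that the Myb-bearing complex is known to activate, gave 6 falls and no rise among 35 tested, with a median of -0.10. The share called was 17.1%, against 16.3% of all tested genes, of which 7.10% rose and 9.20% fell. The checkpoint genes mad2 and Mad1 fell by 0.40 and 0.24, the spindle kinesins Klp61F, Klp67A and Klp10A by 0.37, 0.28 and 0.19, and the kinase gene aurB by 0.28. mad2 read 8.45, 8.44 and 8.58 on the Mip40 arrays, against 8.90, 8.95 and 8.81 on the control arrays, with no overlap (adjusted p = 0.000367). aurB averaged 6.62 ± 0.05 on the Mip40 arrays and 6.89 ± 0.20 on the control arrays (SD, n = 3 each; limma adjusted p = 0.026), where control replicate 3, at 6.67, all but touched the Mip40 values. Klp67A lost its call without control replicate 1 or Mip40 replicate 1, and Klp10A and aurB lost theirs without control replicate 1 or 2, Klp10A also without Mip40 replicate 1 or 2 and aurB without Mip40 replicate 2 or 3. The count rested on single arrays: it was 10 without control replicate 3, 3 without control replicate 1, and 4 without control replicate 2, Mip40 replicate 1 or Mip40 replicate 2. With array weights it was 18, a setting in which 1516 of all tested probe sets fell, against 695 in the fit reported. The cell cycle regulators Skp2 and ago, both parts of ubiquitin ligases, changed by 0.30 and -0.26 and were the ones called among 11, ago not without control replicate 1 or Mip40 replicate 1.

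Genes of the germ line and the piRNA pathway, which guards its genome against transposons, gave 7 rises and 1 fall among 22 tested, with a median of 0.08. In that list 36.4% were called, against 16.3% of all tested genes. The largest rises began from background. swa, which localizes bicoid mRNA in the egg, read 6.88, 6.82 and 7.08 on the Mip40 arrays, against 5.55, 5.39 and 5.06 on the control arrays, a rise of 1.60 as a lower bound (adjusted p = 5.15e-11). The Tudor-domain gene tej read 6.31, 6.40 and 6.75 on the Mip40 arrays, against 5.34, 5.13 and 4.94 on the control arrays, a rise of at least 1.35 on that scale (adjusted p = 3.58e-09). The helicase gene vas, at 5.59 ± 0.19 on the Mip40 arrays and 4.75 ± 0.14 on the control arrays (SD, n = 3 each), was background in both groups, so its call (adjusted p = 9.88e-06) bounds nothing. The others were mino, spn-E, del and cuff, at 0.28 to 0.38. bam, a germ cell differentiation gene, fell by 0.64, with Mip40 values of 6.09 to 6.11 and control values of 7.14, 6.89 and 6.19, a call lost without control replicate 1 or 2 and a lower bound, as the Mip40 mean was background. A further 13 listed genes, among them piwi, zuc, rhi, osk, orb and Panx, were background in both groups and not tested.

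In meiotic recombination 3 of 11 tested genes rose and none fell, with a median of 0.03. These were 27.3%, against 16.3% of all tested genes called. hdm read 7.49, 7.64 and 7.65 on the Mip40 arrays, against 5.95, 6.03 and 5.94 on the control arrays, a rise of 1.62 (SE 0.101, adjusted p = 1.68e-13) that is a lower bound because the control mean was background. The synaptonemal complex genes cona and corolla rose by 0.55 and 0.27 (adjusted p = 9.72e-06 and 0.00406). Among the genes of tMAC and its partners in the testis 3 of 5 tested rose: achi by 0.47, topi by 0.29 and mia by 0.22. achi was read by a probe set with an incomplete probe design, and the call of mia was lost without control replicate 1 or 3 or without Mip40 replicate 1 or 2. aly and tomb did not pass, at -0.09 and 0.03, and 5 of the other 6 were background in both groups. Of 8 tested testis markers blanks, bol and CycJ rose, by 0.45, 0.29 and 0.37, that of CycJ from a control mean that was background and lost without control replicate 1 or Mip40 replicate 3. Of these 8 markers 37.5% were called, against 16.3% of all tested genes. A summed signal is the log2 of the unlogged signals of all matched members added up, untested and background ones included. Bright members weigh most in it. For the 21 matched testis markers it was 12.07 to 12.10 on the Mip40 arrays and 11.74 to 11.80 on the control arrays. In bulk RNA, fewer cells of a kind and less RNA per cell cannot be told apart.

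The label of the cells was checked against blood cell markers. Hml (hemolectin, a clotting protein) read 10.62, 10.60 and 10.74 on the Mip40 arrays, against 11.28, 11.30 and 11.25 on the control arrays, so the line expressed it strongly in both, and it fell by 0.62 (SE 0.0668, adjusted p = 2.59e-08). The hemocyte factor srp was present, at 7.83 ± 0.14 on the Mip40 arrays and 7.86 ± 0.40 on the control arrays (SD, n = 3 each; adjusted p = 0.931). The phagocytic receptor genes NimC1, crq and Sr-CI, which mark mature plasmatocytes, were background in both groups. NimC1 averaged 3.41 on the Mip40 arrays and 3.45 on the control arrays, Sr-CI 3.38 on both, and crq 5.01 on the Mip40 arrays and 4.78 on the control arrays. Of 20 tested markers 3 rose and 5 fell, with a median of -0.04 and a summed signal of 12.87 to 12.94 on the Mip40 arrays and 12.96 to 13.02 on the control arrays. The engulfment receptor gene drpr and the complement-like Tep4 rose by 0.42 and 0.56, drpr through probes shared between transcripts, beside Fer1HCH. NimB5 and NimB1 fell by 0.44 and 0.16, beside Hml and Glt, and the call of NimB5 was lost without control replicate 1 or Mip40 replicate 3. In those same fits 3 markers fell. eater fell by 1.09 but both its means, 4.31 on the Mip40 arrays and 5.41 on the control arrays, were background. Pxn and Col4a1, also planned for this check of the cells, were not among the 20 markers. They were counted in the matrix list, where both fell as given above. The matrix list shares Glt with these markers. Its summed signal over 22 matched members was 12.84 to 12.94 on the Mip40 arrays and 13.66 to 13.89 on the control arrays. The part of cell state or cell number in the falls of matrix genes was not tested.

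Over the 4 lists of markers of other tissues the calls ranged from none to 4 of 8, against 16.3% of all tested genes. None of the 12 tested fat body and gut markers or the 6 tested photoreceptor markers changed by limma, though 2 of the 12 and 0 of the 6 had an unadjusted p under 0.05, and 3 of the 12 and 0 of the 6 rose with array weights. The summed signal of the 18 matched fat body and gut markers was 11.06 to 11.18 on the Mip40 arrays and 11.06 to 11.14 on the control arrays. That of the 15 matched photoreceptor markers was 10.31 to 10.40 and 10.35 to 10.40 in the same order. Of 13 neuronal markers stai (stathmin) rose by 0.42 and nAChRbeta3 fell. Of 8 muscle markers 4 were called: Mlc2 rose by 0.35, and Act79B, Act87E and flr fell by 0.36, 0.25 and 0.24, the actins through probes shared across the actin family. The call of flr, whose groups overlapped, was lost in 4 of the 6 fits without a single array, those without control replicate 1 or 2 or Mip40 replicate 1 or 2. The actin control probe sets averaged 11.07 ± 0.06 on the Mip40 arrays and 11.45 ± 0.03 on the control arrays (SD, n = 3 each). No gene of the 8 tested RNA interference genes changed by limma, with r2d2 nearest at -0.25 (adjusted p = 0.0603) and 3 of the 8 at an unadjusted p under 0.05. With array weights 2 of those 8 fell, and 1 fell without control replicate 3 or without Mip40 replicate 1.

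Smaller groups held single genes of note by size. In the actin list sn (fascin), cpb, Fim and spir rose by 0.26 to 0.61 beside Arpc3B, 5 of 24 tested, and 2 of 24 without control replicate 1. sn rose from a control mean of 5.77, which was background, and kept its call without each single array. Fim lost its call without control replicate 1, spir without control replicate 1 or 2 or Mip40 replicate 2, and cpb without control replicate 1 or 3 or Mip40 replicate 1 or 3. The integrin alpha subunit gene mew fell by 0.69 (SE 0.0844, adjusted p = 2.92e-07), to 6.06 ± 0.08 on the Mip40 arrays, which was background, against 6.76 ± 0.12 on the control arrays (SD, n = 3 each). The receptor tyrosine kinase gene tor read 7.49, 7.23 and 7.33 on the Mip40 arrays, against 6.29, 6.37 and 6.72 on the control arrays, and rose by 0.89 (SE 0.0855, adjusted p = 2.54e-09). The EGF ligand gene spi rose by 0.34 and its pathway inhibitor sty fell by 0.37. Rel, an NF-kappaB factor, rose by 0.31, a call lost without Mip40 replicate 3, while pll and cact of the Toll pathway fell by 0.27 and 0.21, and cact did not pass once control replicate 1 or 2, or Mip40 replicate 1 or 2, was left out. The histone methyltransferase gene trx rose by 0.42 (adjusted p = 0.000277). The other called members of the chromatin list differed by 0.26 or less, and its 5 falls were 0 without control replicate 2 or Mip40 replicate 2, 1 without control replicate 1 or Mip40 replicate 1, and 2 without Mip40 replicate 3.

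**Figure D4:**
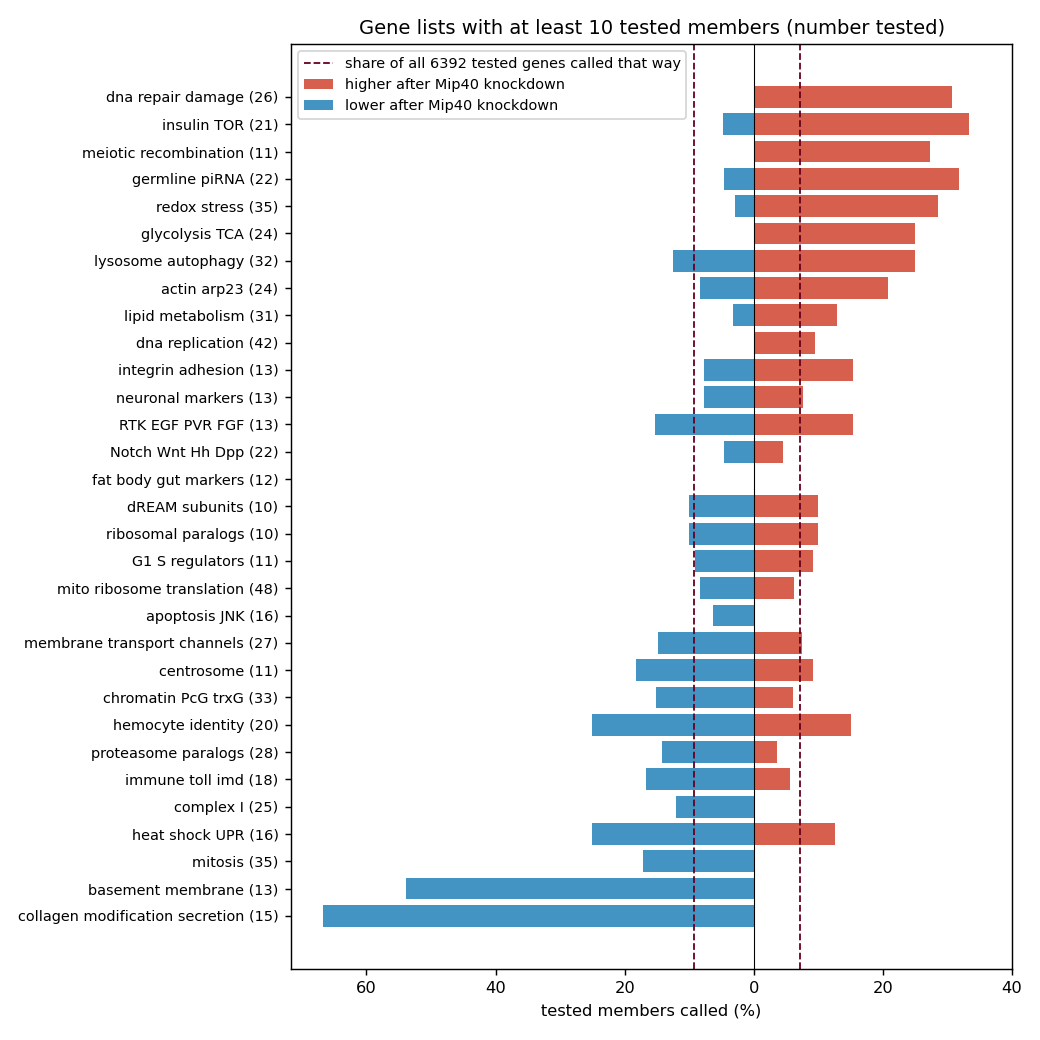
Share of tested members called higher (red, to the right) or lower (blue, to the left) after Mip40 knockdown, in percent, for the gene lists with at least 10 tested members, with the number tested in parentheses. Dashed lines mark the shares over all 6392 tested genes, 7.10% higher and 9.20% lower; the matrix list (7 of 13) and the collagen modification and secretion list (10 of 15) reach farthest to the lower side.

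Adjacent genes changed together at 4 places where both passed the test by at least 0.5 in one direction: vkg with Col4a1 on 2L, Pgant9 with Idgf6 on 2R, the peptide transporter gene yin with CG2930 on X, and Fer1HCH with Fer2LCH on 3R. yin fell by 0.64 and CG2930 by 1.09. Among the risen genes that could be placed, 83 of 452 (18.4%) had a tested neighbour that also rose, against 861 of 6366 (13.5%) of all placed genes. Among the fallen genes the share was 111 of 588 (18.9%), against 1118 of 6366 (17.6%). The share of tested genes that rose ran from 6.18% on 3L to 8.34% on 3R over the 5 large arms, and the share that fell from 8.48% on 2R to 10.2% on 2L.

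The direct comparisons set Mip40 against each core partner on the same scale. The lin-52, mip130 and mip120 transcripts were each higher by the test on the Mip40 arrays than on their own knockdown arrays. The depth of depletion was not compared between subunits, and its part in the differences below was not tested. Of the tested genes 12.8% differed from the Lin-52 knockdown, 10.2% from the Mip130 knockdown and 14.5% from the Mip120 knockdown. In probe sets, 466 were higher and 556 lower on the Mip40 arrays than on the Lin-52 arrays, 392 and 402 than on the Mip130 arrays, and 493 and 636 than on the Mip120 arrays. Differences of at least 2-fold were found for 32, 25 and 41 probe sets in that order. Without Lin-52 replicate 1 the first count, 1022 in all, was 1238. No label pairs arrays, but the replicate numbers of the Mip40 and Mip120 arrays were taken as pairs from the correlations given under processing. With the number as a block 1122 probe sets differed, against 1129 without it. A fit of those 6 arrays alone gave 1728, or 2303 with the block. The comparisons of each partner with control use the same 3 control arrays, so their values below stand side by side and only the direct differences are tested.

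Over the 20 largest falls, mip40 included, the Mip40 change was the larger one in direct comparison for 13 genes against Lin-52, 16 against Mip130 and 18 against Mip120, and the smaller one for 1, 0 and 0. Over the 20 largest rises it was larger for 13, 9 and 11 and smaller for 2, 6 and 4. These genes were chosen for a large Mip40 change, which favours the first kind. Tig read 7.33 ± 0.37 after Lin-52, 7.68 ± 0.08 after Mip130 and 8.24 ± 0.10 after Mip120 knockdown (SD, n = 3 each), and the Mip40 arrays lay below each of them (differences of -0.69, -1.04 and -1.60, adjusted p = 1.01e-05, 8.16e-09 and 3.87e-13). Col4a1 differed from the partners by -0.43, -0.85 and -0.73 and SPARC by -0.55, -0.83 and -1.06, all passing. vkg differed by -0.28, -0.84 and -0.80, and its difference from Lin-52 (adjusted p = 0.00553) was lost without Lin-52 replicate 1. Pxn did not differ from Lin-52 (-0.05, adjusted p = 0.874) by the test, and Ppn was higher on the Mip40 arrays than on the Lin-52 arrays by 0.54 (adjusted p = 0.00592), a call lost without Lin-52 replicate 2 or 3. Of the 13 tested matrix genes 4 were lower and 2 higher on the Mip40 arrays than on the Lin-52 arrays, 5 and 0 than on the Mip130 arrays, and 8 and 1 than on the Mip120 arrays. Of the 15 collagen modification and secretion genes 1, 5 and 8 were lower in that order and none higher. Over all tested genes 12.8%, 10.2% and 14.5% differed in either direction, in the same order.

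Some transcripts did not differ from the Lin-52 knockdown by the test and differed from both others. Ctns read 8.22 ± 0.04 on the Mip40 arrays and 8.21 ± 0.52 on the Lin-52 arrays (SD, n = 3 each), a difference of 0.01 (SE 0.135, adjusted p = 0.982). The difference ran from -0.29 to 0.19 without single arrays, and it was -0.29 and past the test without Lin-52 replicate 1. Ctns was lower on the Mip40 arrays than on the Mip130 and Mip120 arrays (differences of -1.23 and -1.11, adjusted p = 8.1e-08 and 3.25e-07). Pfk did not differ from Lin-52 by the test (-0.15, SE 0.0581, adjusted p = 0.0829) and was above Mip130 and Mip120 by 0.50 and 0.47 (adjusted p = 2.58e-07 and 4.89e-07). Of the 24 tested glycolysis and citric acid cycle genes 9 were lower on the Mip40 arrays than on the Lin-52 arrays and none higher. Against Mip130, 9 were higher and none lower, and against Mip120, 4 were higher and 3 lower. Over all tested genes 12.8% differed in either direction from Lin-52, 10.2% from Mip130 and 14.5% from Mip120.

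Other transcripts were well above the Lin-52 knockdown. Pxt stood at 9.74 ± 0.10 on the Mip40 arrays, 7.71 ± 0.30 after Lin-52, 10.40 ± 0.07 after Mip130 and 10.28 ± 0.04 after Mip120 knockdown, and 7.51 ± 0.30 in control (SD, n = 3 each). The Mip40 arrays were above Lin-52 by 2.03 and below both others (-0.66 and -0.53, adjusted p = 0.000149 and 0.00136). CG13084, CG2887, CG8788, CG31100 and CG5592 were also above Lin-52, with differences of 1.07 to 1.52, those of CG31100 and CG5592 being lower bounds because the Lin-52 and control means were background. CG13084 was lower on the Mip40 arrays than on the Mip130 and Mip120 arrays (differences of -1.02 and -0.95), and so was CG5592 (-1.73 and -1.96). For CG31100 those differences were -0.25 and -0.13 and did not pass (adjusted p = 0.0805 and 0.421). The 22 tested germ line and piRNA genes held 5 higher and 3 lower ones against Lin-52, with a median of -0.06. There vas and Gasz were lower (-0.70 and -0.57), and del and squ higher (0.73 and 0.57, that of squ a lower bound). tej did not differ from Lin-52 by the test (0.18). Over all tested genes 12.8% differed in either direction from Lin-52, 10.2% from Mip130 and 14.5% from Mip120. Against Mip130, 3 of the 22 were higher and 3 lower on the Mip40 arrays, and against Mip120, 2 higher and 3 lower, with medians of 0.04 and 0.02. The lower ones were vas, tej and Gasz in both. The differences from Mip130 and Mip120 were -1.95 and -1.62 for vas, -1.45 and -1.56 for tej, and -0.63 and -0.56 for Gasz. The piRNA genes del and squ were higher in both, del by 0.47 and 0.25 and squ by 0.66 and 0.72, the values of squ being lower bounds because its partner means were background. aub was higher than on the Mip130 arrays, by 0.31. Gasz, squ and aub were named after their values were seen. Of 8 tested chemoreceptor genes Gr63a alone passed, a carbon dioxide receptor gene, with differences of -2.34 and -2.42. Of 6 tested photoreceptor markers none passed by limma, and 1 had an unadjusted p under 0.05 against each of Mip130 and Mip120. Outside these lists the differences were -1.40 and -0.93 for the photoreceptor G protein gene Gbeta76C. The means of vas, Gr63a and Gbeta76C were background on the Mip40 arrays, so their differences are lower bounds.

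A further set lay beyond all partners. In all, 119 genes, 1.86% of those tested, passed in one direction against control and against each of the 3 partners, 60 higher and 59 lower. All 4 comparisons use the same 3 Mip40 arrays. The genes named from this group below were chosen after their values were seen, except those named above. CG6330 stood at 10.00 ± 0.06 on the Mip40 arrays, 8.45 ± 0.15 after Lin-52, 8.76 ± 0.06 after Mip130 and 8.71 ± 0.01 after Mip120 knockdown, and 8.01 ± 0.41 in control (SD, n = 3 each). RpS5b was above Lin-52, Mip130 and Mip120 by 1.15, 0.91 and 1.54, CG8620 by 1.15, 0.60 and 1.29, and CG6770 by 0.95, 0.56 and 0.81. Each of these differences passed in all 6 fits without a single array. REPTOR was above them by 0.41, 0.83 and 0.67, and Fer1HCH by 0.31, 0.45 and 0.48. The retinol dehydrogenase gene Rdh1, the mitophagy receptor gene BNIP3, the lysosomal reductase gene GILT1, the capsid gene Arc2 and the glutamine synthetase gene Gs2 were in the risen set, at 0.77, 0.68, 0.80, 0.47 and 0.44 over control, the last from a control mean of 6.07, which was background.

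In the fallen set rin, the fly G3BP of stress granules, read 9.12, 9.11 and 9.26 on the Mip40 arrays, against 10.76, 10.66 and 10.49 on the Lin-52 arrays, 10.12, 9.92 and 10.08 on the Mip130 arrays, 10.44, 10.36 and 10.53 on the Mip120 arrays, and 10.03, 10.24 and 10.11 on the control arrays. It fell by 0.96 against control (SE 0.0829, adjusted p = 3.41e-10), and its direct differences from Lin-52, Mip130 and Mip120 were -1.47, -0.88 and -1.28. Jhbp1 read 6.59 ± 0.15 on the Mip40 arrays, 7.97 ± 0.31 after Lin-52, 7.34 ± 0.07 after Mip130 and 7.26 ± 0.11 after Mip120 knockdown, and 7.65 ± 0.18 in control (SD, n = 3 each). The temperature entrainment gene nocte, the glutamine synthetase gene Gs1, the aldehyde dehydrogenase genes Aldh-III and Aldh7A1, the glutathione transferase gene GstD7, the deubiquitinase gene Usp7 and the filamin gene cher fell by 0.44 to 0.82 against control and lay below every partner by the test. The cochaperone gene DnaJ-1 fell by 0.29 against control, a call lost without control replicate 3 or Mip40 replicate 2, and differed from Lin-52, Mip130 and Mip120 by -0.77, -0.53 and -0.84.

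Stathmin (stai), a microtubule regulator, was higher after Mip40 knockdown than after Mip130 or Mip120 knockdown. It read 7.40, 7.18 and 7.42 on the Mip40 arrays, against 5.88, 5.79 and 5.61 on the Mip130 arrays, 5.36, 5.30 and 5.63 on the Mip120 arrays and 7.09, 7.01 and 6.66 on the control arrays. The Mip40 arrays were above Mip130 by 1.57 and above Mip120 by 1.91 (adjusted p = 8.38e-13 and 5.93e-15), both as lower bounds since the partner means were background, and above control by 0.42 (SE 0.102, adjusted p = 0.00391). On the Lin-52 arrays it read 7.14, 7.15 and 7.19, which did not differ from Mip40 by the test (0.17, adjusted p = 0.316). A second, dimmer probe set of stai was at 0.28 over control and did not pass (adjusted p = 0.063). Arc1 was above Mip130 and Mip120 by 0.87 and 1.16 (adjusted p = 1.82e-07 and 2.67e-10) and above Lin-52 by 0.23 (adjusted p = 0.135).

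**Figure D5:**
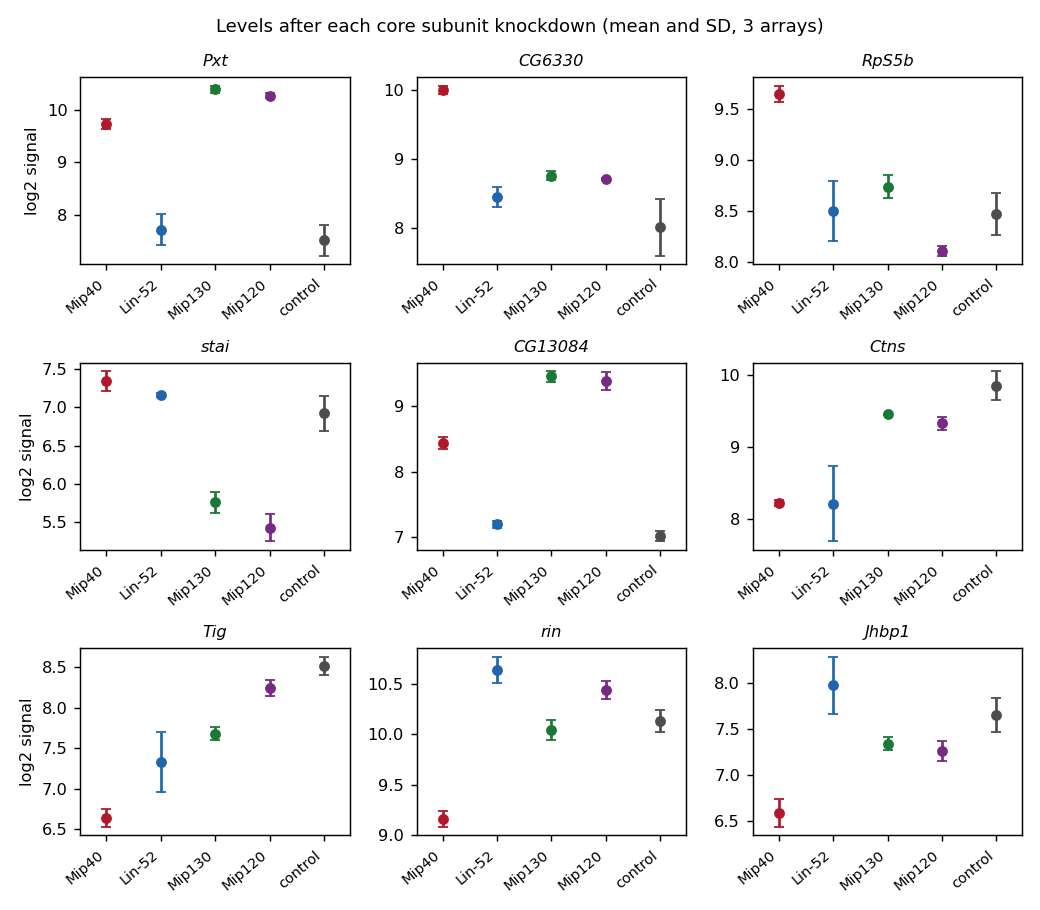
Mean log2 signal (vertical axis, a separate range for each gene) with its SD over 3 arrays after knockdown of Mip40, Lin-52, Mip130 and Mip120 and in control for 9 genes. Pxt and CG13084 are high after Mip40, Mip130 and Mip120 knockdown, CG6330 and RpS5b are highest after Mip40 knockdown, and Tig, rin and Jhbp1 are lowest there.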

How the data were processed

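Deposited values were log2 signals, 1 per probe set and array, on an Affymetrix fly array; the log base is read from their range, and the normalization the authors used is not stated. The submitters' processing notes name GCOS 1.2.0. Values were used as deposited. A probe set was tested where 3 or more of the 30 arrays had it above that array's median (7794 of 13966). The deposited annotation paired 12443 probe sets with 1 gene; 327 with several and 1196 unnamed here were not named. limma 3.58.1 (R 4.3.3; lmFit, eBayes with trend) fitted 10 group means over all 30 arrays (20 residual degrees of freedom), with two-sided p-values adjusted by Benjamini-Hochberg within each contrast at 0.05. Tables and figures used Python 3.11.15, pandas 2.3.3, numpy 2.4.6 and matplotlib 3.10.9. The precision is limited by the number of arrays.

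The members, the 40 gene lists and the comparisons were chosen with earlier results of these data known. Named genes were the dREAM subunits; the 20 largest rises and falls among called genes with groups apart and a higher mean above 7.46, the median of tested values; as many as 6 members called in a list; for each direct comparison, 6 genes with the largest difference in either direction, if called against control too; and neighbouring pairs changed by at least 0.5. Shared replicate numbers were checked by correlating deviations from group means: 0.12, 0.27 and 0.44 for Mip40 and Mip120, each highest with its own number, so these may be paired. The arrays of control (-0.17, -0.20 and -0.41), Lin-52 and Mip130 were not taken as paired with Mip40. The reported fit holds no block, and blocks were fitted as alternatives. The fit was tested on simulated data. Alternatives were quantile, median and cyclic loess scaling, other filters, array weights, no trend, a test against 0.25, fits of 6 arrays, replicate blocks, leaving out the L(3)MBT arrays and leaving out each array. Promoter and protein sequences were not used here.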

Additional observations from a re-analysis of the deposited data

How the results depend on the processing

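No called change from control among the named genes changed direction under an alternative; the uncalled Dp difference changed sign without control replicate 3. Of the direct differences, that of Ctns from Lin-52 (0.01, not called) was -0.29 and called without Lin-52 replicate 1, and other uncalled ones near 0, such as Pxn against Lin-52 (-0.22 to 0.17), changed sign. So did the medians of 18 of the 40 lists, all within 0.048 of 0 in the fit reported. An added background limit, chosen after seeing the data, raised the count of changed genes with a background mean to 79, against 66. The count of changed probe sets, 1240 against control, was 2515 with array weights and 176 when tested against 0.25, and 842 to 1477 without single arrays. Against Lin-52 it was 1022, and 1664 with array weights, 150 against 0.25, 665 with the 6 arrays alone, 599 with these and a replicate block, and 767 to 1238 without single arrays. Against Mip130 it was 794, and 1540, 102, 1216 and 1334 under the same settings, and 544 to 596 without single arrays. Against Mip120 it was 1129, and 2062, 169, 1728 and 2303, and 803 to 937 without single arrays. Leaving out Mip130 replicate 3 gave the lowest of these counts. With the replicate number as a block over all 30 arrays the counts were 1240, 1019, 770 and 1122, and with the block in the 6 arrays of the control comparison 900. No label pairs arrays by number, and in the control comparison the correlations do not pair them either. The share of higher calls against control was 44.0%, and 52.3% with cyclic loess. The fall of mip40 ran from -2.06 to -1.95 over the alternatives. Of 177 named genes called, 120 kept their call in every alternative except the test against 0.25, and 65 in that one too. Signals near background, the number of arrays and control replicate 3 limit what small changes can show.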
